A study of Mus musculus with 8 samples.

Results

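The MEF2 factors Mef2a, Mef2c and Mef2d and the class IIa histone deacetylases Hdac4, Hdac5, Hdac7 and Hdac9 were followed in mouse C2C12 muscle cells depleted of DOR. All probe sets whose annotation lists one of these 7 symbols and no other were taken, which gave 22 of 45037 probe sets, 14 for the MEF2 factors and 8 for the deacetylases. The 7 genes were chosen partly on the measured fall of Mef2c in these same arrays, so the Mef2c values are given as a description without a test. C2C12 is an established mouse myoblast line that fuses into myotubes when serum is reduced. In 4 cultures the cells had been transduced with lentiviruses that carry an siRNA to DOR, a protein encoded by Trp53inp2, a cofactor of nuclear receptors that also takes part in autophagy, and in 4 cultures a lentivirus with scrambled RNA. Cells of both groups received virus at a moi of 100, were expanded over 5 to 7 days, were sorted to 93 to 99% GFP-positive, and were then left to differentiate for 4 days in medium containing 5% horse serum, per the labels' protocols. The labels also call the cells confluent myoblasts and carry a D2 mark that they do not explain, so the stage at harvest is not settled, and they name the cultures of each group as biological replicates with no word on their derivation, so p-values measure only the spread between these cultures. RNA of each culture, 25 ng, was amplified and measured on a 1-colour array, and all values below are the authors' RMA expression values in log2 units, on which a step of 1 is a doubling.

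MEF2 proteins bind DNA through a MADS box and a neighbouring MEF2 domain, and in muscle they work with the myogenic basic helix-loop-helix factors to switch on genes of differentiation. Class IIa histone deacetylases bind MEF2 at its target genes and hold them silent. When kinases phosphorylate these deacetylases, 14-3-3 proteins bind them and carry them out of the nucleus, which frees MEF2. Much of this control acts on the proteins and their location, which an expression array does not measure.

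The array medians lay between 6.14 and 6.20, and any 2 arrays correlated at 0.988 to 0.997. The knockdown was seen in Trp53inp2 itself, whose brighter probe set read 9.46, 9.93, 9.49 and 9.18 in DOR siRNA cultures 1 to 4, against 11.50, 11.55, 11.43 and 10.92 in scrambled cultures 1 to 4 (difference -1.83 ± 0.17, standard error, limma adjusted p = 0.00087). The dimmer one did not show it (difference 0.14 ± 0.08, limma adjusted p = 0.52). Over all probe sets 3.22% passed the threshold of an adjusted p under 0.05 in limma's moderated test, 1.19% as lower and 2.04% as higher in the knockdown, and for 9.85% the groups did not overlap (4.05% with the knockdown lower, 5.80% with it higher). The calls over all probe sets depended on single arrays: 1452 passed with all 8 arrays, 2310 without scrambled 4, and 608 to 821 without scrambled 1, 2 or 3 or DOR siRNA 1 or 3.

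Promoter windows of the members are shown first, since MEF2 factors and their deacetylases are known to be able to act on genes that carry MEF2 sites. RefSeq windows of 300 bases (GRCm38.p6), from 250 bases before a transcript start to 50 after it, were at hand for each of the 7 genes, 13 windows in all. The MEF2 consensus site was searched on both strands. It was in 2 of the 13 windows, those of Mef2a and Hdac5, against 3.19% of the 32851 windows of all genes. Counted from the transcript start, it spans bases -2 to 8 in Mef2a and bases -20 to -11 in Hdac5. Capitals mark the site in the first pair of windows. The upstream window of Mef2c, 1 of 3, held no such match, and capitals in it mark E-boxes instead, the CANNTG sites of the myogenic basic helix-loop-helix factors, which 72.3% of all windows hold.
Mef2a, chr7:67372809-67373108, minus strand: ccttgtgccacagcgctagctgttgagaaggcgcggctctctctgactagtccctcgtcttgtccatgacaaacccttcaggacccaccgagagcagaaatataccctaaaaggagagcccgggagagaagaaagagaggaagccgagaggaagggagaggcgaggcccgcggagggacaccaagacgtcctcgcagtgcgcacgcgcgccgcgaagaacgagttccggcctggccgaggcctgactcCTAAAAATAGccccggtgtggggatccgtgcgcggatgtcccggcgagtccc
Hdac5, chr11:102230123-102230422, minus strand: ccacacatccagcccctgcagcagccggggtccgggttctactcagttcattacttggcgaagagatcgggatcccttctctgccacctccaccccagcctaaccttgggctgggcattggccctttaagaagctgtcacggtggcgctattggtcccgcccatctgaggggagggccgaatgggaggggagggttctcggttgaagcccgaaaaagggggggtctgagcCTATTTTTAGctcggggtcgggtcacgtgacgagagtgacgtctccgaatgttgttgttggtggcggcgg
Mef2c, chr13:83503784-83504083, plus strand: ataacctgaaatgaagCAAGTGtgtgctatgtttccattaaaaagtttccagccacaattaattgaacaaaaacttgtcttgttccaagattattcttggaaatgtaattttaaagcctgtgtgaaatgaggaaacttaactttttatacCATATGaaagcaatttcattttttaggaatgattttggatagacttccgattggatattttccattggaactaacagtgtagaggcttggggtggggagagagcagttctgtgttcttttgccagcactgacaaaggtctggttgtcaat
A match is a description of the letters in the window, and no match says only that these letters are not there.

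Mef2c, the paralog whose loss in the mouse embryo disturbs heart and muscle development, was lower in the DOR siRNA cultures by each of its 5 probe sets. The brightest, 1421027_a_at, read 9.16, 9.27, 9.69 and 9.99 in DOR siRNA cultures 1 to 4, against 10.88, 11.13, 10.99 and 11.20 in scrambled cultures 1 to 4. Every knockdown value lay under every scrambled value, and cultures 1 and 2 were the lowest of the knockdown. The means were 9.52 ± 0.38 in the knockdown and 11.05 ± 0.14 in scrambled cultures (SD, n = 4 each). This was a 2.88-fold lower level (difference -1.53 ± 0.16, standard error), a size that the choice of Mef2c for its fall may enlarge.

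The other Mef2c probe sets gave nearly the same picture. Their differences were -1.50 for 1424852_at, -1.36 for 1451506_at, -1.62 for 1421028_a_at and -1.51 for 1451507_at, so the 5 ran from 2.57-fold to 3.07-fold lower. For none of the 5 did the groups overlap. The annotation gives 3 of the 5 the same source sequence, so they are not independent measurements. Within the knockdown 4 of 5 probe sets were lowest in culture 1 and 4 of 5 highest in culture 4, and in the scrambled group 5 of 5 were highest in culture 4. For the brightest probe set, 1421027_a_at, the differences from the scrambled culture of the same number were -1.72, -1.86, -1.31 and -1.21 for numbers 1 to 4. Under the 12 other settings tried, left-out arrays among them, the difference of this probe set stayed between -1.68 and -1.40. Some of these settings, the replicate block among them, cannot alter the difference.

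Mef2a, a paralog with the same kind of DNA-binding domain, was also lower, to a smaller extent. Its brightest probe set, 1427185_at, read 11.93, 11.99, 11.99 and 12.06 in DOR siRNA cultures 1 to 4, against 12.57, 12.53, 12.31 and 12.22 in scrambled cultures 1 to 4. The groups did not overlap, but the gap between the highest knockdown and the lowest scrambled culture, both number 4, was small. The means were 11.99 ± 0.06 in the knockdown and 12.41 ± 0.17 in scrambled cultures (SD, n = 4 each), a 1.34-fold lower level (difference -0.42 ± 0.09, limma adjusted p = 0.035).

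Of the 6 Mef2a probe sets 4 fell past the threshold, 6 of 6 had a negative difference, and 0 rose. The share of all probe sets that passed in either direction was 3.22%. The other 3 that fell were 1452347_at (-0.42 ± 0.09, limma adjusted p = 0.037), 1427186_a_at (-0.45 ± 0.09, 0.030) and 1421252_a_at (-0.48 ± 0.09, 0.019). Of the 6 probe sets 3 share a source sequence in the annotation, so these calls are in part the same measurement. The dimmer 1442623_at had a similar difference and did not pass (-0.44 ± 0.11, limma adjusted p = 0.057), and passed with the replicate number as a block (0.046), a fit in which 6.28% of all probe sets passed.

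The sixth, 1425426_a_at, was the only Mef2a probe set whose groups overlapped. It read 7.80, 6.36, 7.77 and 8.19 in DOR siRNA cultures 1 to 4, against 8.39, 8.42, 7.98 and 8.30 in scrambled cultures 1 to 4. Knockdown culture 2 stood well below the other 7 arrays, which gave an SD of 0.80 in the knockdown, against 0.20 in the scrambled group. Its difference of -0.75 ± 0.31 did not pass (limma adjusted p = 0.27), and without knockdown culture 2 the difference was -0.36.

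The size of the Mef2a difference was steadier than its call. Over the 12 other settings the brightest probe set gave -0.48 to -0.36, and its adjusted p ran from 0.015 to 0.11. The replicate block, the variance trend and the fit without dim probe sets cannot alter the difference. Its range thus comes from the left-out arrays and cyclic loess alone. Without DOR siRNA 1 or 3, or without scrambled 1 or 2, none of the 6 probe sets passed limma's test, while 5 or 6 of them were lower at an unadjusted p under 0.05. Without DOR siRNA 2 or scrambled 3, 1 passed, without DOR siRNA 4, 3 passed, and without scrambled 4, 5 passed. The replicate block and the fit without dim probe sets also called 5.

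Mef2d, the paralog expressed most broadly and present before differentiation, was not shown to differ. Its brightest probe set, 1434487_at, read 10.82, 11.12, 10.91 and 10.81 in DOR siRNA cultures 1 to 4, against 11.17, 11.10, 11.20 and 10.99 in scrambled cultures 1 to 4. Knockdown culture 2 reached into the scrambled range, and the other 3 knockdown cultures lay below it. The difference was -0.20 ± 0.09 (95% interval -0.40 to -0.001, limma adjusted p = 0.32). The 2 dimmer probe sets had differences of -0.15 for 1437300_at and -0.17 for 1421388_at, so 3 of 3 were negative and none passed limma's test, 1 of them at an unadjusted p under 0.05. For 1421388_at the difference was -0.09 without knockdown culture 2 and -0.11 without scrambled 3. The lowest end of the 3 intervals was -0.41, so a decrease of up to about that size is within the error.

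**Figure D1:**
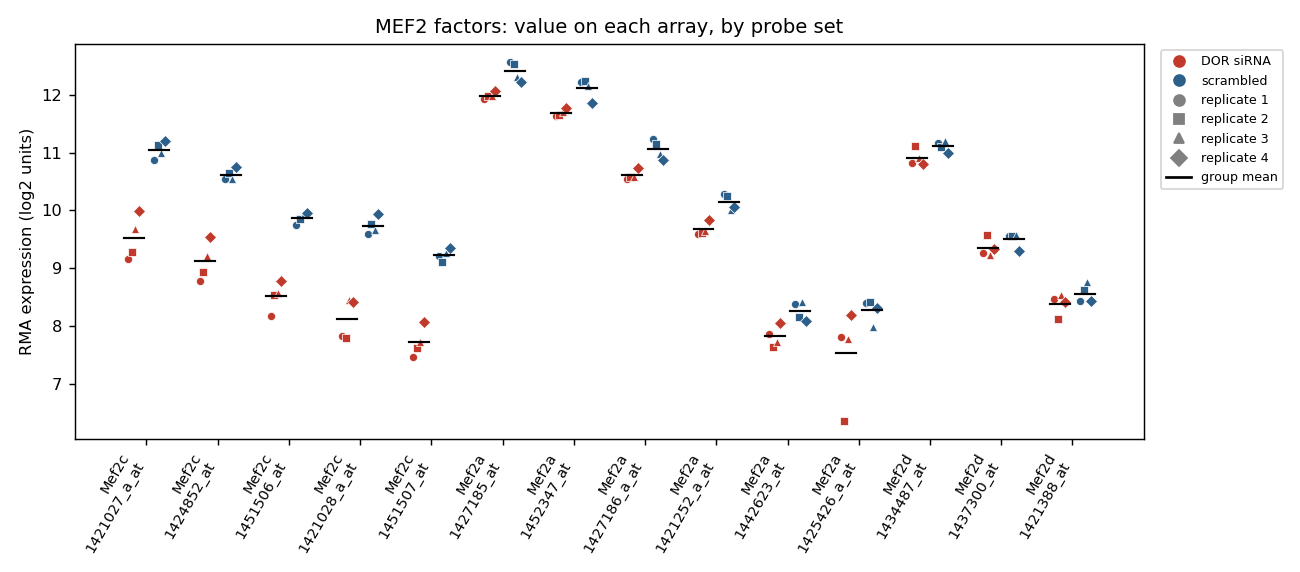
Expression of the 14 MEF2 probe sets (log2 units) on each array, DOR siRNA left and scrambled right for each probe set, with a symbol for each replicate number and a line at each group mean. The knockdown means are lower by 1.36 to 1.62 log2 units for the 5 Mef2c probe sets, by 0.42 to 0.75 for Mef2a and by 0.15 to 0.20 for Mef2d. The groups overlap for every Mef2d probe set and for the Mef2a probe set at 0.75.

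None of the 8 probe sets of the class IIa deacetylases passed limma's test, against 3.22% of all probe sets, and at an unadjusted p under 0.05 the numbers were 2 higher and 0 lower, where 8.46% and 6.88% of all probe sets were. Those 2 belong to Hdac7, a deacetylase studied most in vessels and in thymocytes. Its brighter probe set, 1420813_at, read 8.72, 9.18, 8.78 and 8.83 in DOR siRNA cultures 1 to 4, against 8.58, 8.56, 8.65 and 8.66 in scrambled cultures 1 to 4. Each knockdown value was above each scrambled one, and culture 2 was the highest. The difference was 0.26 ± 0.10 (95% interval 0.04 to 0.49, limma adjusted p = 0.22), and 0.16 without knockdown culture 2.

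The dimmer Hdac7 probe set, 1420812_at, likewise separated the groups. It read 7.75, 8.10, 7.55 and 7.64 in DOR siRNA cultures 1 to 4, against 7.49, 7.25, 7.47 and 7.39 in scrambled cultures 1 to 4. Its difference was 0.36 ± 0.12 (95% interval 0.11 to 0.62, limma adjusted p = 0.13), and 0.25 without knockdown culture 2. Both probe sets have the same source sequence in the annotation. Complete separation upward was found for 5.80% of all probe sets.

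Hdac4, which is known to be induced in denervated muscle, overlapped between the groups in 3 of 3 probe sets. The brightest, 1436758_at, read 7.53, 8.03, 7.59 and 7.51 in DOR siRNA cultures 1 to 4, against 7.58, 7.61, 7.52 and 7.34 in scrambled cultures 1 to 4. Apart from culture 2, the knockdown values lay within the scrambled range. The difference was 0.15 ± 0.12 (95% interval -0.11 to 0.41, limma adjusted p = 0.64), and 0.03 without knockdown culture 2. The other Hdac4 probe sets had differences of 0.31 ± 0.18 for 1454693_at and 0.09 ± 0.09 for 1447566_at. Without knockdown culture 2 the difference was 0.12 for 1454693_at and 0.06 for 1447566_at.

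Hdac5, a target of calcium-dependent and AMP-dependent kinases in muscle, has 1 probe set. It read 9.31, 9.70, 9.46 and 9.32 in DOR siRNA cultures 1 to 4, against 9.35, 9.40, 9.41 and 9.21 in scrambled cultures 1 to 4. The groups overlapped, with knockdown culture 2 again the highest. The difference was 0.11 ± 0.10 (95% interval -0.11 to 0.32, limma adjusted p = 0.71), and 0.02 without knockdown culture 2.

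Hdac9, known in the mouse to be itself switched on by MEF2, had negative differences of small size. Its brighter probe set, 1434572_at, read 6.97, 6.82, 6.96 and 6.88 in DOR siRNA cultures 1 to 4, against 7.11, 6.79, 6.78 and 7.38 in scrambled cultures 1 to 4. The scrambled cultures spread widely around the knockdown values. The difference was -0.11 ± 0.13 (95% interval -0.39 to 0.17, limma adjusted p = 0.78), and it was 0.01 without scrambled 4. The dimmer probe set, 1421306_a_at, lay with an average of 5.49 in the knockdown and 5.63 in scrambled cultures under the median of all probe sets, 6.18. It was the only member probe set below that level, and whether it was above background is not shown by the values.

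The 6 probe sets of Hdac4, Hdac5 and Hdac7 all had their highest knockdown value in culture 2, and 6 of 6 had a positive difference. Both probe sets of Hdac9 had their lowest knockdown value in that culture, and it was the highest for 2 of the 3 Mef2d probe sets. The peak was not particular to these members, as partner genes taken up below show. In DOR siRNA cultures 1 to 4 Sik2 read 8.82, 9.30, 8.66 and 8.68, and Tead1 read 10.26, 10.83, 10.43 and 10.43. Some other partner genes were lowest in culture 2, Prkaa2 among them (8.26, 7.73, 8.22 and 7.90). What sets culture 2 apart was not tested. For Hdac4, Hdac5 and Hdac7 the differences without that culture are given above where they moved by more than 1.5 times.

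**Figure D2:**
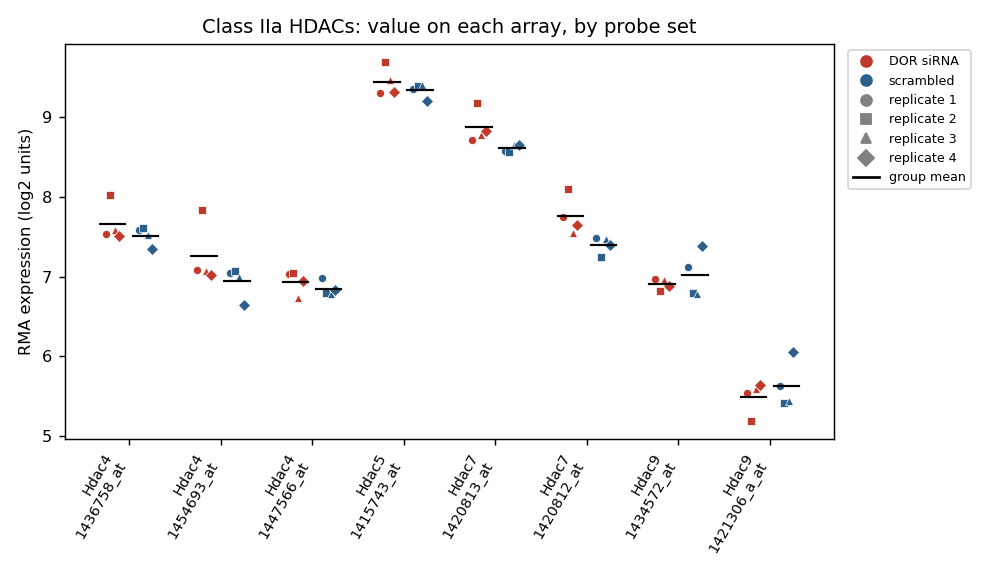
Expression of the 8 class IIa deacetylase probe sets (log2 units) on each array, DOR siRNA left and scrambled right for each probe set, with a symbol for each replicate number and a line at each group mean. DOR siRNA culture 2 (square) is the highest knockdown point for the 6 probe sets of Hdac4, Hdac5 and Hdac7, and the 2 of Hdac7 alone show no overlap between groups.

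Leaving Mef2c aside, 4 of the 17 remaining probe sets were lower past the threshold and 0 higher, where 1.19% and 2.04% of all probe sets passed in these directions. All 4 belong to Mef2a. The median difference over the 17 was -0.15, against 0.002 over all probe sets.

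**Figure D3:**
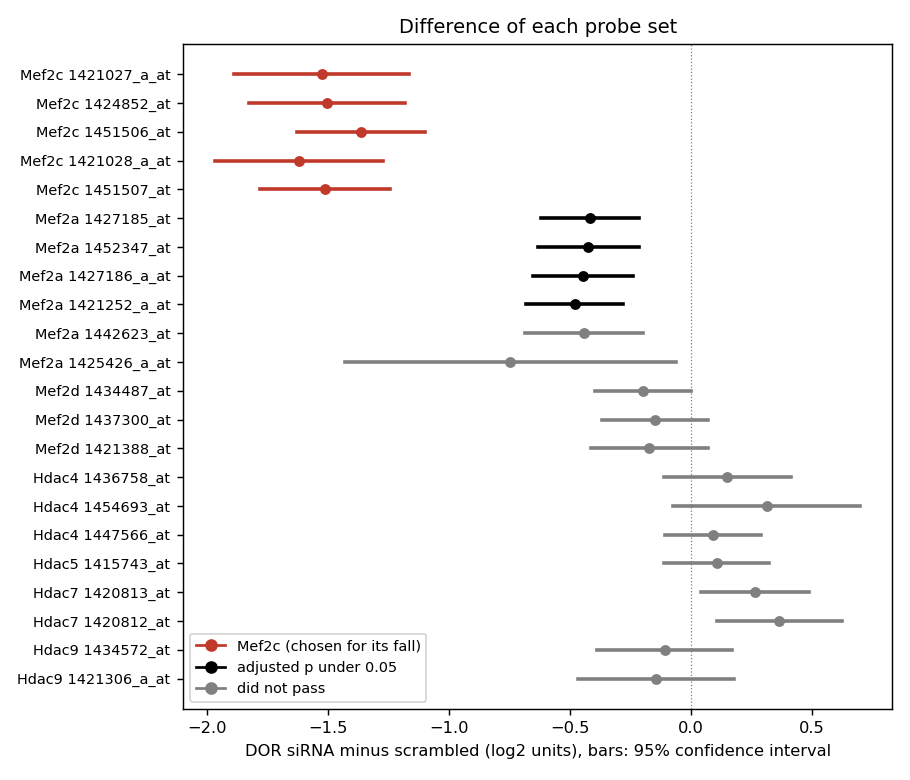
Difference of each of the 22 probe sets, DOR siRNA minus scrambled in log2 units, with its 95% confidence interval from the limma fit (n = 4 each). Mef2c is set apart in colour because it was chosen for its fall, and its intervals do not allow for that choice and are no test. In black, 4 Mef2a probe sets pass the threshold, and the 3 of Mef2d and 8 of the deacetylases in grey do not.

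The members were then set against each other on each array, by subtracting the brightest probe set of one gene from that of another. The level of such a difference has no meaning between probe sets, but its change between the groups shows whether 2 genes moved unequally, and a shift common to an array cancels. For 9 pairs without Mef2c an exact two-sided permutation test over the 8 arrays was made, which with 4 against 4 cannot go below 0.029, and p-values were adjusted over the 9. The pairs share genes, so they are not independent.

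The deacetylases Hdac4, Hdac5 and Hdac7 were higher relative to both Mef2a and Mef2d. On their own, their brightest probe sets differed by 0.15, 0.11 and 0.26, none past limma's threshold. Mef2a differed by -0.42, which passed, and Mef2d by -0.20, which did not. The lower Mef2a thus made the larger part of the changes against it. Each pair that passed had the lowest p this test can give, so its adjusted value rests on how many pairs reached that p. Hdac7 minus Mef2a read -3.21, -2.81, -3.21 and -3.24 in DOR siRNA cultures 1 to 4, against -3.99, -3.97, -3.66 and -3.57 in scrambled cultures 1 to 4. The groups did not overlap, and the change was 0.68 (exact permutation p = 0.029, adjusted 0.043). Hdac7 and Mef2a each separated the groups alone, in opposite directions, so this pair could give no other p and adds no evidence. It also counts among the pairs behind the adjusted values. Hdac4 minus Mef2a changed by 0.57 and Hdac5 minus Mef2a by 0.52, with the same p-values in the exact permutation test.

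Against Mef2d the changes were smaller and tighter. Hdac5 minus Mef2d read -1.52, -1.42, -1.45 and -1.49 in DOR siRNA cultures 1 to 4, against -1.82, -1.70, -1.79 and -1.78 in scrambled cultures 1 to 4. The SD within a group was 0.04 in the knockdown and 0.05 in scrambled cultures, against 0.18 and 0.09 for Hdac5 alone, and the change was 0.30 (exact permutation p = 0.029, adjusted 0.043). Hdac7 minus Mef2d changed by 0.46 and Hdac4 minus Mef2d by 0.35, with the same p-values in the exact permutation test. Without knockdown culture 2 the 6 changes were between 0.29 and 0.58. An exact sign-flip test over the same-numbered pairs passed for none of the 6, but with 4 pairs it cannot go below 0.125.

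For the other pairs no unequal movement was shown. Mef2a minus Mef2d was 1.08 ± 0.16 in the knockdown and 1.29 ± 0.15 in scrambled cultures (SD, n = 4 each, change -0.22, exact permutation p = 0.11, adjusted 0.15). Hdac9 minus Mef2a changed by 0.31 (exact permutation p = 0.17, adjusted 0.19) and Hdac9 minus Mef2d by 0.09 (exact permutation p = 0.66, adjusted 0.66). Pairs with Mef2c are a description only: Mef2c minus Mef2a was -2.47 ± 0.33 in the knockdown and -1.36 ± 0.28 in scrambled cultures, and Mef2c minus Mef2d was -1.39 ± 0.46 in the knockdown and -0.06 ± 0.23 in scrambled cultures (SD, n = 4 each). No DOR siRNA culture reached a scrambled one in either.

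**Figure D4:**
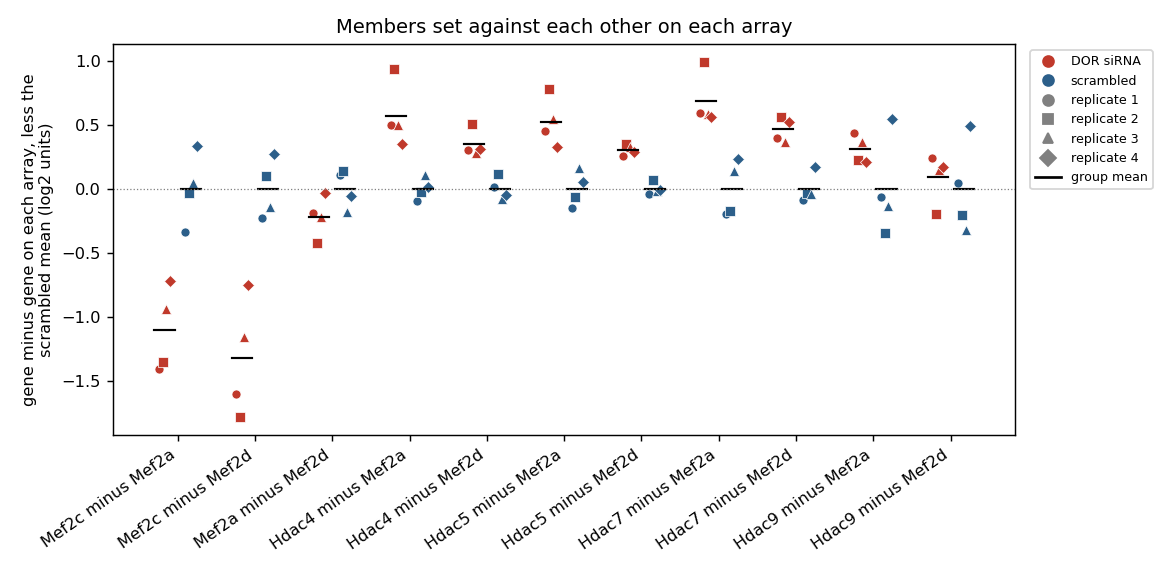
Brightest probe set of one gene minus that of another on each array, less the mean of the scrambled arrays (log2 units), DOR siRNA left and scrambled right, with a symbol for each replicate number and a line at each group mean. Hdac4, Hdac5 and Hdac7 sit 0.30 to 0.68 above the scrambled mean relative to Mef2a or Mef2d, and Mef2c sits 1.11 and 1.33 below it.

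Genes whose profile over the 8 arrays was most like that of Mef2c were sought among 11258 genes with a mean at or above the median level, by the root mean square difference of the values centred on each probe set's own mean. The nearest were Rap1gap2 (0.32 log2 units), Igf2 (0.34), Cops7a (0.34), Chst13 (0.34) and B4galt4 (0.38). The first 2, a GTPase-activating protein of Rap1 and a growth factor, had differences of -1.01 and -0.99. Cops7a, a subunit of the COP9 signalosome, differed by -1.12, Chst13, a carbohydrate sulfotransferase, by -1.05 and B4galt4, a galactosyltransferase, by -0.97. The second Mef2c probe set lay at 0.06 from the brightest, while the nearest Mef2a probe set lay at 0.57, the nearest Mef2d one at 0.72 and the deacetylases at 0.73 to 1.02. The measure was taken over both groups, so it mostly reflects the size of the difference between them.

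Partner genes were taken as lists, with the brightest probe set standing for a gene. By this choice 4.56% of all 18193 genes passed, 1.45% lower and 3.11% higher, and the median difference over all genes was 0.02. Of 28 kinases, phosphatases and 14-3-3 proteins that act on class IIa deacetylases, 1 fell and 2 rose, 25 did not pass, and the median was 0.02. Ywhah, the 14-3-3 eta protein, averaged 11.08 ± 0.12 in the knockdown and 10.60 ± 0.21 in scrambled cultures (SD, n = 4 each, difference 0.48 ± 0.11, limma adjusted p = 0.042). Prkd2, a protein kinase D that phosphorylates these deacetylases, averaged 6.45 ± 0.18 in the knockdown and 6.05 ± 0.01 in scrambled cultures (difference 0.40 ± 0.09, limma adjusted p = 0.044), with the scrambled cultures lying under the median of all probe sets.

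Prkaa2, a catalytic subunit of AMP-activated kinase, averaged 8.03 ± 0.26 in the knockdown and 8.80 ± 0.38 in scrambled cultures (difference -0.78 ± 0.18, limma adjusted p = 0.043). None of these 3 calls was firm. Of the 28 genes none passed limma's test without DOR siRNA 1 or 4 or scrambled 1, 2 or 3, with 5 to 8 at an unadjusted p under 0.05. Without DOR siRNA 2 or 3, 1 passed, without scrambled 4, 4 passed, with cyclic loess 1 passed, and the replicate block called 5, with Ywhaq and Camk2a added.

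Of 15 corepressor partners and other deacetylases none passed limma's test, with an unadjusted p under 0.05 for 4 that were higher and for 0 that were lower, and their median difference was 0.08. The smallest p-values were those of Tbl1x, a subunit of a corepressor complex (difference 0.32 ± 0.10, limma adjusted p = 0.10), and Hdac1, a class I deacetylase (0.23 ± 0.09, 0.22). Hdac1 passed without scrambled 4 (limma adjusted p = 0.049).

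Of 25 coactivators, activating kinases and partner factors of MEF2 none passed limma's test, with an unadjusted p under 0.05 for 4 that were lower and for 3 that were higher, and their median difference was -0.05. Myf5, a myogenic factor of early myoblasts, differed by 0.45 ± 0.13 (limma adjusted p = 0.080), and Myog, myogenin, by -0.31 ± 0.09 (0.083). For neither gene did the groups overlap, which held for 2 of the 25 genes, against 9.85% of all probe sets. The replicate block called 2 members, Myf5 (limma adjusted p = 0.044) and Tead4, the fit without scrambled 4 called Tead4 alone, and averaging the probe sets of a gene called Myog (0.047).

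Muscle genes known as MEF2 targets were lower in larger number. Of 25 measured, 10 fell, 1 rose and 14 did not pass, 24 had a negative difference, and the median was -0.46, against 0.02 over all genes. The list was drawn up with earlier results of these data known, so its direction is not independent evidence. Lmod3, a leiomodin that nucleates thin filaments, averaged 10.37 ± 0.12 in the knockdown and 11.20 ± 0.25 in scrambled cultures (SD, n = 4 each, difference -0.83 ± 0.12, limma adjusted p = 0.0056). Srpk3, a muscle kinase of splicing factors, averaged 10.05 ± 0.09 in the knockdown and 10.50 ± 0.08 in scrambled cultures (difference -0.45 ± 0.08, limma adjusted p = 0.013). Myom2 and Myom1, myosin-binding proteins of the M-band, differed by -0.50 ± 0.09 (limma adjusted p = 0.015) and -0.83 ± 0.16 (0.023).

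The gene that rose was Jun, a subunit of the AP-1 factor and a known MEF2 target, named after its values were seen. It read 10.45, 10.73, 10.84 and 10.83 in DOR siRNA cultures 1 to 4, against 10.17, 10.22, 10.31 and 10.25 in scrambled cultures 1 to 4 (difference 0.48 ± 0.10, limma adjusted p = 0.024). All knockdown values lay above all scrambled ones. Jun rose and Srpk3 fell, and each has a MEF2 consensus site in its window, as do 5 of the 29 windows found for this list. Capitals mark the site in these stretches of 30 bases (GRCm38.p6), shown for 1 gene that rose, 1 that fell and 1 that did not pass.
Jun, chr4:95052236-95052265, minus strand: acatcatgggCTATTTTTAGggattgactg
Srpk3, chrX:73774328-73774357, plus strand: agctgggaggCTATTTATAAaggcgagtga
Pgam2, chr11:5803857-5803886, minus strand: ttttgtgagaCTATTTTTAAgttcagctcc
Jun carries the same 10 letters as Hdac5 above, from base -33 to base -24. Pgam2, the muscle phosphoglycerate mutase, did not pass (-0.62 ± 0.25, limma adjusted p = 0.26).

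Single arrays moved the number of target genes called. It was 11 with all arrays, 7 without DOR siRNA 1, 6 without DOR siRNA 4 and 3 without DOR siRNA 3 or scrambled 1, 2 or 3. Lmod3 and Srpk3 kept their calls under the 13 other settings tried. Myom2, Myom1 and Jun lost theirs in some fits without 1 array, with limma adjusted p up to 0.054, 0.079 and 0.082.

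Markers of the state of the culture moved with these results. The marker lists, too, were chosen with earlier results of these data known. Over all genes 1.45% fell and 3.11% rose past the threshold. Of 11 markers of differentiated myotubes, Ckm and Myog of the target list among them, 5 fell and 11 had a negative difference. Their average level was 11.93 to 12.39 in DOR siRNA cultures, against 12.71 to 13.06 in scrambled cultures. Of 7 markers of cycling and progenitor myoblasts, Myf5 among them, 5 rose, and their average level was 8.68 to 8.91 in DOR siRNA cultures, against 8.05 to 8.27 in scrambled cultures. For 8 markers of adipocytes, osteoblasts, macrophages and endothelium none passed limma's test, nor at an unadjusted p under 0.05, and the average level was 4.92 to 5.14 in DOR siRNA cultures, against 4.91 to 5.06 in scrambled cultures, with 5 of the 8 under the median of all probe sets. The part of these markers in the lower Mef2c, Mef2a and target gene values was not tested. In bulk RNA, fewer differentiated cells and less of a transcript per cell cannot be told apart.

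**Figure D5:**
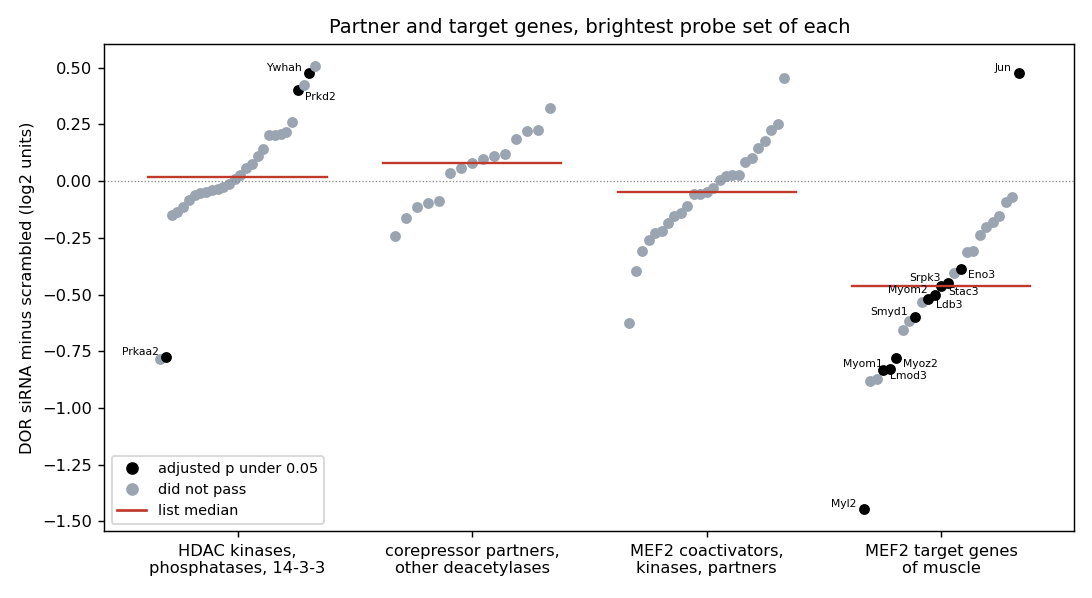
Difference of each partner or target gene by its brightest probe set, DOR siRNA minus scrambled in log2 units, ordered by size within 4 lists, with genes past the threshold in black and named and the list median as a line. The target list has its median at -0.46 with Jun alone above 0, and the medians of the other 3 lists lie between -0.05 and 0.08.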

How the data were processed

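The authors deposited 1 log2 value per probe set and array, computed by RMA, as the submitters' processing notes say. RMA gives the arrays the same distribution, so a change common to most transcripts is hidden. The version of RMA is not given in the sources used here. After 64 control probe sets were set aside, 45037 were tested. The platform annotation and RefSeq gene identifiers gave 1 symbol for 34945 probe sets, several for 932 and none for 9160. Those with several were fitted and left unnamed, so some listed genes are not analysed here. Each gene was read from its brightest probe set.

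The comparison used limma (version 3.58.1, R 4.3.3) with group as its only term and eBayes, with two-sided p-values adjusted by Benjamini-Hochberg over all probe sets. Differences are DOR siRNA minus scrambled. The unpaired fit was tested on simulated data with independent noise on each array, which leaves out any link between same-numbered arrays. The number of arrays limits the precision. Alternatives were the replicate block, each array left out, cyclic loess, a variance trend with a robust prior, no dim probe sets and averaging the probe sets of a gene. Same-numbered arrays deviated together (correlations 0.142 to 0.468 over all probe sets, 4 of 4 pairs above 0.1). The numbers were therefore taken to pair the cultures. The replicate block was run beside the unpaired fit that gives the values reported. Neither that unpaired fit nor the permutation test of gene pairs uses the pairing. The members, lists and tests were chosen with earlier results of these data known. All member probe sets are named, in each list up to 4 called genes with the smallest p or else the 2 smallest, and the 5 genes most like Mef2c. Figures were drawn with matplotlib 3.10.9.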

Additional observations from a re-analysis of the deposited data

Results flagged for a closer look

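Among 72 groups of 4 arrays checked, for the 22 member probe sets and the called partner and target genes, 4 held 1 array far from the other 3. Chance gives about 1 in 20, so this count is near the number that chance alone gives. In DOR siRNA culture 2 Hdac4 read 8.03 by 1436758_at, where the nearest knockdown array read 7.59, and 7.84 by 1454693_at, where the nearest read 7.08. In scrambled culture 4 Mef2d read 9.29 by 1437300_at, where the nearest scrambled array read 9.56. Also in scrambled culture 4 Myom1 read 9.99, where the nearest read 10.31.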

How the results depend on the processing

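The replicate block called 2827 probe sets in all, against 1452 without it, and raised the called genes to 5 among the HDAC kinases, phosphatases and 14-3-3 proteins and to 2 among the MEF2 coactivators and partners. Cyclic loess left 1 called gene in the first of these lists, and averaging the probe sets of a gene called 1 in the second. The sign-flip test over numbered pairs, which cannot pass with 4 pairs, called 0 of the gene pairs that passed the permutation test, 6 of 9. With single arrays left out, the calls over all probe sets ran from 608 to 2310, those among the 17 member probe sets without Mef2c from 0 to 5. Counts over all 22, from 5 to 10, hold in every fit the 5 of Mef2c, which was chosen for its fall. The called genes ran from 0 to 4 among the HDAC kinases, phosphatases and 14-3-3 proteins, from 0 to 1 among the corepressor partners, from 0 to 1 among the MEF2 coactivators and partners and from 3 to 12 among the MEF2 targets. No difference of a called member or a called pair turned its sign under any alternative run. Of those not called, Hdac9 1434572_at was 0.01 without scrambled 4, and Hdac9 minus Mef2d was -0.02 without scrambled 3. The replicate block also called 15 of the MEF2 targets, 14 of them lower, against 11 without it, with Ckm among those added. It called Mef2a 1442623_at (limma adjusted p = 0.046, against 0.057 without it) and Myf5 (0.044, against 0.080). Tead4, Ywhaq and Camk2a were likewise called with it and not in the unpaired fit that gives the values reported. The fit without scrambled 4 also called each of these genes. Ywhaq was called as well with the variance trend and without dim probe sets. No member or gene of the partner and target lists that was called without the block lost its call. The causes of these moves were not tested. Hdac9 1421306_a_at and the scrambled values of Prkd2 lay under the median level of all probe sets, and no detection values were used.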
